A study of Drosophila melanogaster with 9 samples.

Results

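The genes krimp, AGO3, aub and tej act in the PIWI-interacting RNA (piRNA) pathway. They were followed across sorted mesodermal cells of Drosophila embryos with a deletion that, per the labels, removes 1 of 2 Forkhead transcription factor genes, and across controls with neither deletion. Each of the 4 genes had 1 probe set, of 18769 probe sets tested and 11982 genes named in all. The genes were chosen by their measured signal differences between the genotypes on these same arrays. Their values are therefore given as a description, with no test.

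The study asked how the Forkhead factors CHES-1-like and Jumu act in specifying cardiac progenitors. The 9 arrays formed 3 groups of 3, each hybridised with biotin-labelled cRNA made from about 2 to 5 µg of Trizol-extracted total RNA. All embryos had reached stage 11 or early stage 12 at 25 °C and carried twi-GAL4 and UAS-2EGFP, so that cells expressing Twist fluoresced green and could be sorted. The CHES-1-like mutant embryos were homozygous for the null deletion Df(1)CHES-1-like1 and stand as CHES-1-like null in the plots. The jumu deficiency embryos were homozygous for Df(3R)Exel6157, with the driver on the one homologue and the reporter on the other, and the control embryos carried neither deletion. Which genes besides jumu Df(3R)Exel6157 removes was not examined, so values of that group belong to the deletion as a whole. In the titles of the other groups driver and reporter are written together, so their arrangement or copy number may differ from that in the jumu deficiency. Sorting followed the GAL4 reporter, which labels Twist-expressing mesoderm as a whole and no single lineage of it. Whether the replicates stem from separate embryo collections or sorts is not stated in the labels. The p-values thus measure how far these arrays scatter, which may be technical scatter.

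The piRNA pathway silences transposons. PIWI proteins carry short guide RNAs that are cut from transposon transcripts and from cluster transcripts of genomic transposon graveyards. In germ cells the PIWI proteins Aubergine (aub) and Argonaute 3 (AGO3) slice complementary transcripts in turn, the ping-pong cycle, in a perinuclear structure called the nuage. The Tudor-domain protein Krimper (krimp) brings both partners together there, and Tejas (tej), with a Tudor and a LOTUS domain, helps to assemble the nuage. Mothers load many of these proteins and RNAs into the egg, and in the embryo the pathway is best known from the germ line rather than from mesoderm.

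The labels and the sorted cell type were first set against the arrays. The signal of CHES-1-like was 12.00 ± 0.03 on the log2 scale in controls (SD, n = 3) and 3.87, 4.32 and 3.92 on the 3 null arrays, which are not above background. A second, dimmer CHES-1-like probe set read 8.12 ± 0.18 in controls and 6.34, 5.86 and 6.76 on the null arrays, lower but above background (SD, n = 3). The jumu signal was 10.52 ± 0.06 in controls and 8.13 ± 0.12 in the jumu deficiency (SD, n = 3), lower but above background on all 3 arrays. Where the probes of this set lie relative to the deletion, and whether they also bind other transcripts, was not tested. All 8 measured mesoderm markers were above background in every group. So were all 8 neural, 7 epidermis and tracheal and 5 endoderm markers measured, so this cannot tell mesoderm from other cells. The mean log2 signal of the mesoderm markers per array was 9.88 to 9.91 in controls, 9.64 to 9.68 in CHES-1-like mutants and 10.06 to 10.11 in the jumu deficiency. Within groups the pairwise correlation of arrays (Pearson's r) ran from 0.998 to 0.999, and it was lowest for replicate 3 of the CHES-1-like mutant. Background was taken from the 125 probe sets of chemoreceptor genes (odorant and gustatory), whose 95th percentile lay between 5.18 and 5.80 on the 9 arrays. It was higher in the jumu deficiency, at 5.46, 5.61 and 5.80, than in controls, at 5.18, 5.25 and 5.30. A signal not above background in the jumu deficiency can thus lie above the percentiles of the controls. A value under that percentile of its own array is called not above background. Where all 3 arrays of a group fall there, the fold is given as a lower bound, the mean of the brighter group over the mean percentile of the dimmer group's arrays.

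The gene of the partner-assembling factor, krimp, was the one of the 4 that was lower in both mutants. Its log2 signal was 7.27, 7.18 and 7.45 in the controls, 6.78, 6.56 and 6.43 in CHES-1-like mutants, and 4.63, 4.40 and 4.51 in the jumu deficiency. All 3 groups stood apart, in the order control, CHES-1-like mutant, jumu deficiency. The jumu deficiency arrays were all in the range of the chemoreceptor genes that serve as background. The CHES-1-like mutant minus control difference was −0.71 ± 0.10 (SE of the fit), a signal of 61.2% of the control. The jumu deficiency minus control difference was −2.79 ± 0.10, which with the bound on the dim side is at least 3.20-fold lower. In these bulk samples fewer cells of a type and less RNA per cell cannot be told apart.

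AGO3, the partner that in the ping-pong cycle mostly carries sense piRNAs, lay above the control in one mutant and below it in the other. The control arrays read 7.15, 7.14 and 7.09. The CHES-1-like mutant arrays read 8.70, 8.69 and 8.73, and the jumu deficiency arrays 5.31, 5.65 and 5.63. The CHES-1-like mutant arrays had an SD of 0.019 (n = 3) and all lay above the controls, and 1 of the 3 jumu deficiency arrays was above background. All 3 of these jumu deficiency values lay above the lower background percentiles of the controls, the 5.31 only just. The difference from control was 1.58 ± 0.08 in CHES-1-like mutants (SE), a 2.99-fold higher signal. In the jumu deficiency it was −1.60 ± 0.08, a signal of 33.0% of the control.

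The second slicer, aub, followed the same order as AGO3 over a narrower range. Its control arrays read 7.80, 7.79 and 7.77, its CHES-1-like mutant arrays 8.17, 8.13 and 8.06, and its jumu deficiency arrays 6.86, 6.88 and 6.86. It was the only one of the 4 genes that was above background on all 9 arrays, and the spread within groups was small, with an SD of 0.018 in controls, 0.054 in CHES-1-like mutants and 0.0099 in the jumu deficiency (n = 3 each). The CHES-1-like mutant was 0.34 ± 0.04 (SE) above the control, or 1.26-fold. The jumu deficiency was 0.92 ± 0.04 (SE) below it, at 52.8% of the control signal.

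The nuage factor tej was the dimmest of the 4 in controls as an array signal, although signals of different probe sets are not levels that can be ranked. The controls read 6.24, 6.21 and 6.07. The CHES-1-like mutant arrays read 7.77, 7.60 and 7.34, and the jumu deficiency arrays 4.90, 5.22 and 4.82, all 3 of them not above background. The groups again stood apart, highest in CHES-1-like mutants and lowest in the jumu deficiency. The CHES-1-like mutant was 1.40 ± 0.13 (SE) above the control, or 2.64-fold. The jumu deficiency minus control difference was −1.19 ± 0.13 (SE), at least 1.47-fold lower with the bound.

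**Figure D1:**
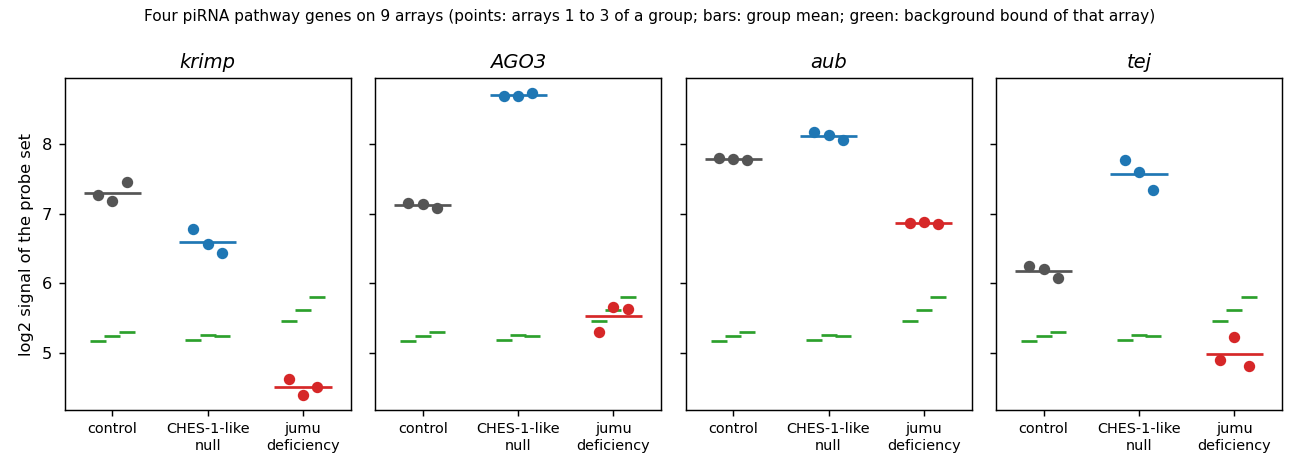
Log2 signal of the krimp, AGO3, aub and tej probe sets (y axis) on the 9 arrays, by genotype (x axis), with points for arrays, horizontal bars for group means and green bars for the background percentile of that array. AGO3, aub and tej are highest in CHES-1-like mutants and lowest in the jumu deficiency, while krimp is highest in controls at 7.30 and reaches 4.51 in the jumu deficiency.

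For none of the 4 genes did any 2 groups overlap. Over all probe sets tested, the arrays did not overlap between the CHES-1-like mutant and control in 42.7%, between the jumu deficiency and control in 46.8% and between the mutants in 43.6%. Since the genes were picked on these contrasts, nothing is read from their own count. Both comparisons with the control share its 3 arrays. The direct difference between the mutants does not use those arrays, although its SE does. There, jumu deficiency minus CHES-1-like mutant, krimp was at −2.08 ± 0.10, AGO3 at −3.18 ± 0.08, aub at −1.26 ± 0.04 and tej at −2.59 ± 0.13 (SE). For krimp this is at least 1.96-fold lower and for tej at least 3.86-fold. For AGO3 the signals differed 9.05-fold, with 2 of its 3 jumu deficiency arrays not above background. Leaving out each array in turn kept krimp between −0.80 and −0.63 in CHES-1-like mutants and between −2.85 and −2.71 in the jumu deficiency. For tej the corresponding ranges were 1.30 to 1.51 and −1.31 to −1.11.

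Replicate 3 of the CHES-1-like mutant was the lowest array of its group for krimp, aub and tej. It was also the lowest for 25 of the 44 other piRNA pathway genes measured (56.8%), against 40.3% of all genes.

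Among the 4 genes, the array profiles of AGO3 and tej were the closest to each other. After each probe set's own mean was subtracted, they differed by a root mean square of 0.290 log2 units over the 9 arrays. The value was 0.589 for aub and tej, 0.801 for AGO3 and aub, and 0.771 to 0.953 for krimp with each of the other genes. Among all 11982 genes, the 3 closest to AGO3 were mol, ZnT77C and CG44005, at 0.160, 0.229 and 0.249. ZnT77C and CG44005 were also the closest to tej, at 0.194 and 0.195, followed by the maternally supplied cell-cycle regulator gene plutonium (plu) at 0.199. The closest to aub were tum, a cytokinesis gene, Cks30A, a cyclin-dependent kinase subunit gene, and the centromere protein gene Cenp-C, at 0.0455, 0.0621 and 0.0657. For krimp they were CG8303, Dci and CG6495, at 0.231, 0.233 and 0.245.

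The other pathway genes gave the setting in which the 4 stood. Of 46 further listed genes, 44 were measured. In the CHES-1-like mutant 13 of the 44 were higher and 7 lower than in controls in limma's test (adjusted p under 0.05), and 24 did not pass, with a median log2 difference of 0.06 against 0.02 over all genes. Of all genes 17.1% were higher and 18.6% lower in that comparison, against 29.5% and 15.9% of the pathway genes. With each array centred on its median, 8 were higher and 7 lower, a share of higher calls of 53.3% in place of 65.0%, and over all probe sets that share went from 48.5% to 39.4%. Leaving out 1 array in turn gave between 9 higher and 7 lower, without control replicate 2, and 14 higher and 7 lower, without jumu deficiency replicate 2. Without replicate 3 of the CHES-1-like mutant it was 13 and 7, and at an adjusted p threshold of 0.01 it was 8 and 7.

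In the jumu deficiency 4 of the 44 pathway genes were higher and 21 lower, and 19 did not pass, with a median of −0.18 against 0.01 over all genes. The background was 17.6% of genes higher and 21.0% lower, against 9.09% and 47.7% of the pathway genes. Of these calls, 1 higher and 1 lower gene were not above background in either group. With each array centred the split was 4 higher and 24 lower, and over all probe sets the share of higher calls went from 46.1% to 31.4%. Directly between the mutants, 23 pathway genes were lower in the jumu deficiency and 7 higher (median −0.20 against 0.00 for all genes), where 21.1% of all genes were lower and 21.2% higher. Of the 7 higher, 1 was not above background in either mutant.

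Among the PIWI proteins, piwi, whose product silences transposons in the nucleus of germ cells and of ovarian somatic cells, read 6.14, 6.24 and 6.08 in controls, 6.86, 6.78 and 6.32 in CHES-1-like mutants and 5.93, 5.79 and 6.30 in the jumu deficiency. It rose by 0.50 ± 0.16 in CHES-1-like mutants (SE, limma adjusted p = 0.040). Its jumu deficiency arrays overlapped the controls, and the difference of −0.15 ± 0.16 did not pass (limma adjusted p = 0.54).

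Of the 13 other nuage and ping-pong genes, 4 rose and 2 fell in CHES-1-like mutants, and 1 was higher and 8 lower in the jumu deficiency. As shares these were 30.8% higher and 15.4% lower, then 7.69% and 61.5%. Over all genes they were 17.1% and 18.6%, then 17.6% and 21.0%. The 4 that rose in CHES-1-like mutants were spn-E, a helicase with a Tudor domain, SoYb and BoYb, germline relatives of the Yb protein, and squ, which encodes a nuage protein. The spn-E arrays read 6.96, 6.90 and 6.93 in controls, 7.65, 7.57 and 7.60 in CHES-1-like mutants, and 6.07, 6.48 and 6.47 in the jumu deficiency. The gene rose by 0.68 ± 0.10 in CHES-1-like mutants and fell by 0.59 ± 0.10 in the jumu deficiency (SE), in the order seen for AGO3, aub and tej. SoYb showed that order too, at 0.83 ± 0.08 in CHES-1-like mutants and −0.66 ± 0.08 in the jumu deficiency (SE), where 1 of its 3 arrays was above background. BoYb was not above background in controls and read 6.68, 6.44 and 5.96 in CHES-1-like mutants, at least 2.16-fold higher, while its difference of −0.69 in the jumu deficiency lies between 2 groups that are not above background. In contrast squ rose in both, by 0.81 ± 0.05 and 0.42 ± 0.05 (SE).

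Other nuage genes did not pass in that order in both mutants. The Tudor protein gene papi fell by 0.46 and by 0.51, and csul, the arginine methyltransferase that marks PIWI proteins for Tudor binding, by 0.21 and by 0.39 in CHES-1-like mutants and the jumu deficiency. The csul cofactor vls (−0.27), the Tudor gene vret (−0.27) and mael (−0.60) fell in the jumu deficiency and were at −0.09, 0.04 and 0.10 in CHES-1-like mutants, where none passed. By group means vret and mael thus had the order of AGO3. The differences of tud, qin and tapas from control lay between −0.26 and 0.27 and did not pass. A second, dimmer tapas probe set passed in the jumu deficiency at 0.38, with no group above background. The helicase gene vas, a defining germ cell gene, was not above background on any of the 9 arrays, at 4.57 to 4.65 in controls, 4.56 to 4.74 in CHES-1-like mutants and 4.56 to 4.69 in the jumu deficiency.

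Among the genes that define piRNA clusters in the nucleus, rhi followed the order of AGO3 and tej. This HP1 relative, which marks the clusters, read 7.17, 7.09 and 7.07 in controls, 8.48, 8.48 and 8.44 in CHES-1-like mutants and 6.55, 6.51 and 6.56 in the jumu deficiency. It rose by 1.36 ± 0.04 and fell by 0.57 ± 0.04 (SE, limma adjusted p = 7.6e-08 and 6.8e-06). The gene of the zinc-finger protein that guides it, kipf, was at 0.71 ± 0.09 and −0.67 ± 0.09, and its partner cuff at 0.15 ± 0.05 and −0.40 ± 0.05 (SE). For kipf 1 of the 3 jumu deficiency arrays was above background. Not every cluster gene did so. The transcription factor gene moon fell by 0.89 ± 0.09 in CHES-1-like mutants and was at −0.24 in the jumu deficiency, where it did not pass, and the export factor gene Boot fell in both, by 0.65 and by 0.45. Of the 11 measured cluster and export genes, 3 rose and 2 fell in CHES-1-like mutants (27.3% and 18.2%, against 17.1% and 18.6% of all genes). In the jumu deficiency none rose and 7 fell (63.6%, against 21.0% of all genes). One of those 7, Nxf3, read 6.84, 7.76 and 6.63 there, and no call was made for its second probe set.

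The 9 genes of piRNA maturation showed no such order as a group, with 2 higher and 1 lower in CHES-1-like mutants and 2 higher and 2 lower in the jumu deficiency. As shares these were 22.2% and 11.1%, then 22.2% and 22.2%. Over all genes they were 17.1% and 18.6%, then 17.6% and 21.0%. The mitochondrial nuclease gene zuc, which makes phased piRNAs, fell by 0.57 ± 0.04 (SE) in the jumu deficiency and was at 0.11 in CHES-1-like mutants, which did not pass. The co-chaperone gene shu fell in the jumu deficiency to values not above background, at least 1.19-fold. The mitochondrial acyltransferase gene mino went the other way, at −0.20 ± 0.05 in CHES-1-like mutants and 0.53 ± 0.05 in the deficiency (SE). In the CHES-1-like mutant daed rose by 0.41 ± 0.09 and Hen1, the methyltransferase that completes the maturation of piRNAs and small interfering RNAs, by 0.40 ± 0.09 (SE). In the jumu deficiency fs(1)Yb, a gene of the ovarian somatic pathway, was not above background in either group. For the 10 nuclear silencing genes measured, 3 rose and 2 fell in CHES-1-like mutants and 1 rose and 4 fell in the jumu deficiency. By the brightest probe set of each gene, their differences from control all lay within −0.53 and 0.20, while a second probe set of Su(var)2-10, a SUMO ligase gene, was at 0.41 ± 0.07 (SE) in CHES-1-like mutants. The lowest was wde, a cofactor of the histone methyltransferase of this pathway, at −0.53 ± 0.05 in the jumu deficiency (SE).

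**Figure D2:**
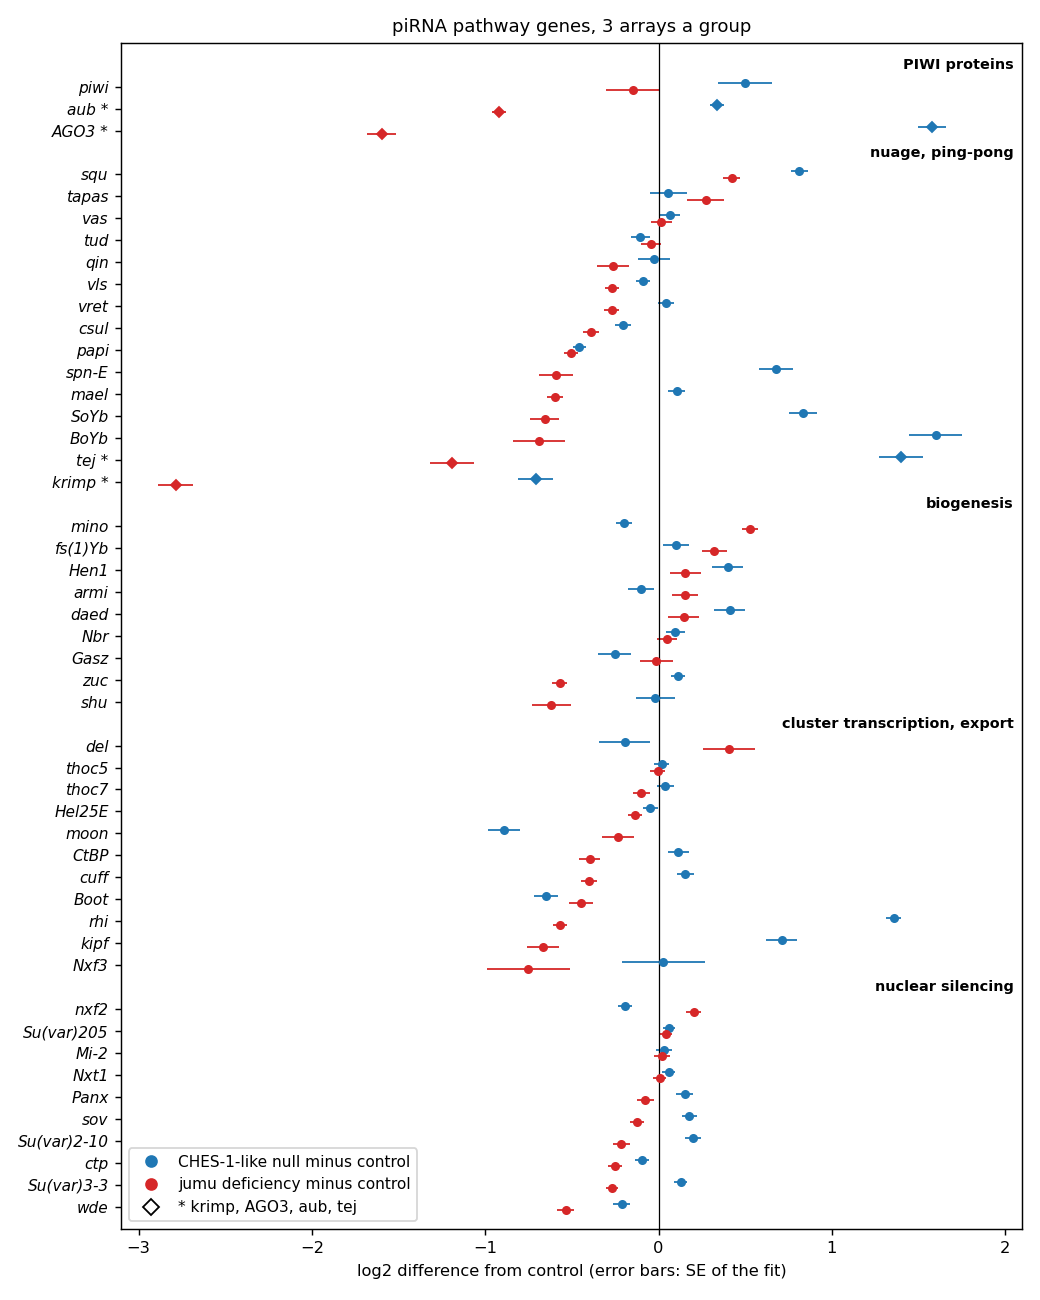
Log2 difference from control (x axis, bars are the SE of the fit, 3 arrays a group) for the measured piRNA pathway genes (y axis), by role, with the CHES-1-like mutant in blue and the jumu deficiency in red. Blue right of 0 and red left of 0 is seen for AGO3, aub, tej, spn-E, SoYb, rhi, kipf and cuff, among others, while krimp is left of 0 in both at −0.71 and −2.79. BoYb is placed likewise, but its red point lies between 2 groups that are not above background.

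The mutants were also compared directly, as a difference of their own arrays, with the spread still estimated over all 9 arrays. Over all genes, 21.1% were lower and 21.2% higher in the jumu deficiency than in CHES-1-like mutants. Of the 13 other nuage genes, 8 were lower in the jumu deficiency than in CHES-1-like mutants and none was higher, spn-E at −1.27 ± 0.10 and SoYb at −1.49 ± 0.08 among them (SE), with BoYb at least 1.66-fold lower. The PIWI gene piwi was lower by this measure too, at −0.64 ± 0.16 (SE, limma adjusted p = 0.0098). Of the 11 cluster and export genes 5 were lower and 3 higher, with rhi at −1.93 ± 0.04 and kipf at −1.38 ± 0.09 against moon at 0.66 ± 0.09 (SE). The maturation genes split into 3 lower and 3 higher, with zuc at −0.68 and mino at 0.73. Of the 3 higher, 1 was not above background in either mutant.

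The pathways of small interfering RNAs and microRNAs, which use other Argonaute proteins, gave a comparison. Of 12 listed genes 9 were measured, and AGO1, AGO2 and Dcr-1 were not analysed here. In the CHES-1-like mutant 3 were higher and none lower, and in the jumu deficiency 2 were higher and 3 lower. Their differences from control lay between −0.25 and 0.38 in both mutants. The widest were those of pasha, a microprocessor subunit gene, at 0.38 ± 0.05 in CHES-1-like mutants, and gw, whose product acts with AGO1, at −0.25 ± 0.04 in the jumu deficiency (SE). The 4 chosen genes were at −2.79 to 1.58 on the same scale, but they were chosen for their size, so the contrast is a description. Over all genes, 17.1% were higher and 18.6% lower in CHES-1-like mutants, and 17.6% and 21.0% in the jumu deficiency. Those shares stand beside the counts of this list and of the marker lists that follow.

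The pathway is best known from the germ line, and mothers load many of its RNAs into the egg. Germ cell markers and maternally supplied RNAs were therefore set beside the 4 genes. Of 10 measured germ cell markers outside the pathway, 4 were higher and 2 lower in CHES-1-like mutants, and 2 higher and 4 lower in the jumu deficiency, where 1 of the higher was not above background in either group. Their mean log2 signal per array was 6.82 to 6.88 in controls, 7.05 to 7.20 in CHES-1-like mutants and 6.71 to 6.73 in the jumu deficiency. The listed genes otu and orb were not above background on any array, and neither was vas. The same held for the brightest osk probe set, while 1 of its 2 other probe sets was above background on a single CHES-1-like mutant array, at 5.22. The germ cell regulator nanos read 4.92, 4.85 and 4.84 in controls, not above background, and 6.89, 6.71 and 6.40 in CHES-1-like mutants, at least 2.69-fold higher. In the jumu deficiency it read 5.63, 5.57 and 5.74, where 1 of the 3 arrays was above its own background percentile. Those percentiles were 5.46 to 5.80 in that group and 5.18 to 5.30 in controls, so no fold is given. Among the germ cell markers ovo and the gap junction gene zpg followed the order of AGO3. They were at 0.89 and 0.55 in CHES-1-like mutants and −0.37 and −0.23 in the jumu deficiency. The ovo signal was 9.77 in controls, and which cells gave it was not tested. In contrast bgcn was lower in both mutants. Its group means were 6.96 in controls, 6.58 in CHES-1-like mutants and 6.64 in the jumu deficiency. The differentiation factor bam read 7.39, 7.39 and 7.37 in controls and 5.96, 5.93 and 5.99 in the jumu deficiency, a fall of 1.42 ± 0.13 (SE), and in CHES-1-like mutants it did not pass. The part of germ cells in the values of the 4 genes was not tested.

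Several maternally supplied RNAs followed the order of AGO3, aub and tej. Of 11 measured, 5 were higher and none lower in CHES-1-like mutants, and 1 was higher and 5 lower in the jumu deficiency. Their mean log2 signal per array was 6.71 to 6.72 in controls, 7.09 to 7.16 in CHES-1-like mutants and 6.11 to 6.16 in the jumu deficiency, with exu not above background in any group and plu and twe also not in the jumu deficiency. Smaug (smg), which clears maternal RNA, was at 1.06 ± 0.05 and −1.08 ± 0.05 (SE), and plu rose by 1.27 ± 0.09 in CHES-1-like mutants and was at least 1.69-fold lower in the deficiency. The anterior determinant bcd rose by 0.73 ± 0.04 and was at −2.58 ± 0.04 in the jumu deficiency (SE), where 1 of 3 arrays was above background. Its second, dimmer probe set rose by 0.55 and was at least 1.20-fold lower in the jumu deficiency, with no array there above background. The Cdc25 phosphatase gene twe, picked after its values were seen, rose by 1.17 and was at least 1.49-fold lower in the jumu deficiency. Other maternal RNAs did not follow that order, such as gnu and mtrm. Group means of gnu were 6.03 in controls, 6.09 in CHES-1-like mutants and 6.44 in the jumu deficiency. Those of mtrm were 6.48, 6.15 and 6.15. The part of leftover maternal RNA in the values of the 4 genes was not tested.

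**Figure D3:**
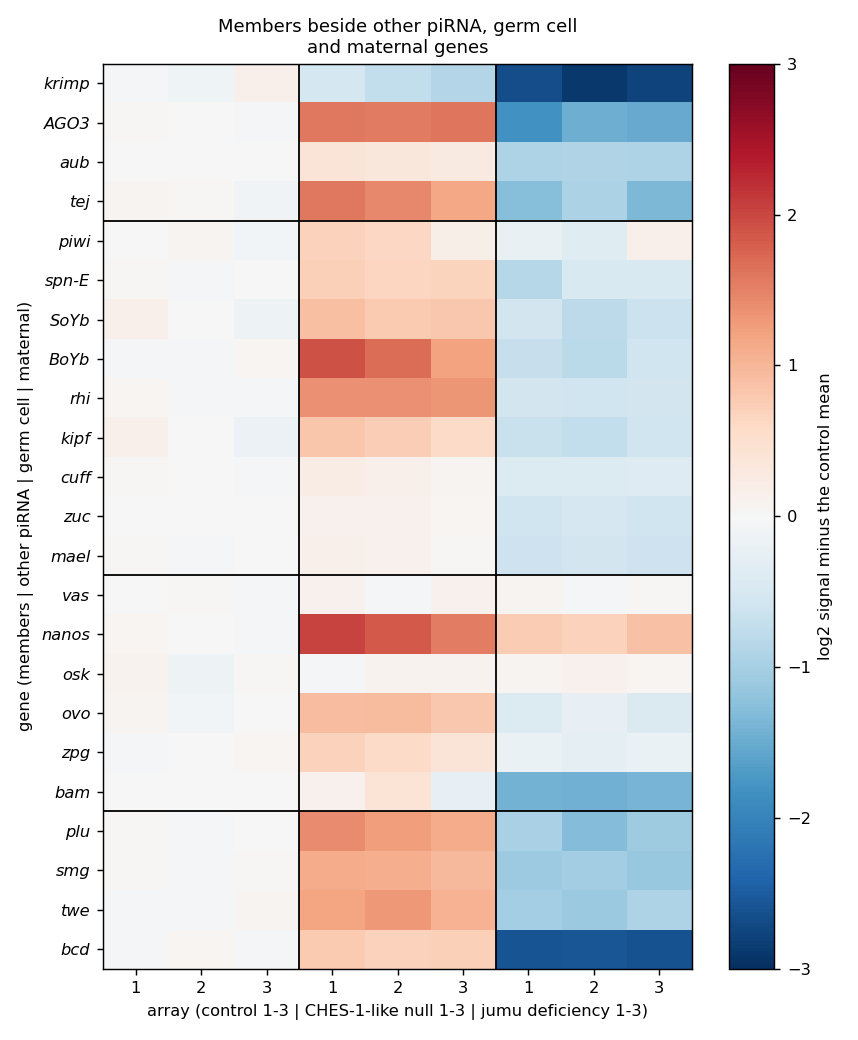
Log2 signal minus the control mean (colour, from −3 to 3) for the 4 chosen genes and for other piRNA, germ cell and maternal genes (rows) on the 9 arrays (columns, 3 per genotype), with rows outside the 4 picked after their values were seen. The CHES-1-like mutant columns are red and the jumu deficiency columns blue for AGO3, aub, tej, rhi and smg, while krimp is blue in both, nanos is red in both, and vas and osk stay pale.

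Markers of other cells also differed between the groups. All 7 measured epidermis and tracheal markers were higher in CHES-1-like mutants, with a mean log2 signal per array of 9.57 to 9.61 against 8.88 to 8.95 in controls and 8.96 to 8.98 in the jumu deficiency. In the latter 3 of the 7 were lower and 1 was higher, the tracheal receptor gene btl at 1.73 ± 0.07 (SE). Of the 5 endoderm markers 3 were higher in CHES-1-like mutants and none lower (9.77 to 9.83 against 9.42 to 9.43), and of 8 neural markers 4 were higher and none lower (9.66 to 9.72 against 9.54 to 9.63). In the jumu deficiency 4 of 8 haemocyte markers were higher and none lower (9.80 to 9.85 against 9.35 to 9.39), and 5 of 8 neural markers were lower and 2 higher (9.34 to 9.48). Of 6 gonadal mesoderm markers, 1 was higher and 3 lower in CHES-1-like mutants and 2 higher and 1 lower in the jumu deficiency. Of the 8 mesoderm markers, 1 was higher and 5 lower in CHES-1-like mutants and 5 higher and 2 lower in the jumu deficiency. The order of AGO3, highest in CHES-1-like mutants and lowest in the jumu deficiency, was also seen outside germ cell and maternal genes. By group means it held for the epidermis markers crb and grh, the endoderm marker fkh and the neural marker repo, among others. It did not hold for btl, serp, peb and mira, which are in the same lists. The 3′ and 5′ ends of 4 control transcripts were also compared. The 3′ minus 5′ log2 signal of actin was 1.04 ± 0.01 in controls, 0.94 ± 0.06 in CHES-1-like mutants and 1.26 ± 0.03 in the jumu deficiency, and that of eIF-4a was 1.07 ± 0.07, 1.15 ± 0.05 and 1.35 ± 0.03 (SD, n = 3). The 18S rRNA went the other way, at 0.95 ± 0.05, 0.81 ± 0.11 and 0.76 ± 0.05, and GAPDH was at 0.34 ± 0.09, 0.08 ± 0.25 and 0.42 ± 0.16 in the same order (SD, n = 3). The part of these shifts in the values of the 4 genes was not tested.

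The chromosomal neighbours of the 4 genes were examined next. Gene order was taken from the current annotation, and no coordinates are given because no genome build is stated for the arrays. The genes krimp and tej lie on arm 2R, aub on 2L and AGO3 on 3L, whereas jumu is on 3R and CHES-1-like on X, so none of the 4 is on the arm of either deletion. For each gene the 5 nearest measured genes on each side were examined, a choice made after the data were seen. Of the 10 neighbours of krimp, 1 was higher and 3 lower in the jumu deficiency. The gene next to krimp, CG15708, read 7.23, 7.19 and 7.14 in controls, 6.94 ± 0.05 (SD, n = 3) in CHES-1-like mutants, and 4.75, 4.91 and 5.08 in the jumu deficiency. It was at least 2.96-fold lower in the deficiency and fell by 0.25 ± 0.08 (SE, limma adjusted p = 0.038) in CHES-1-like mutants. The gene after it, CngA, an ion channel gene, read 12.43, 12.45 and 12.46 in controls and 12.31, 12.37 and 12.32 in CHES-1-like mutants. In the jumu deficiency it read 3.35, 3.66 and 3.78, at least 113-fold lower, and a second CngA probe set was not above background in any group.

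The 3 adjacent genes krimp, CG15708 and CngA were thus all at background in the jumu deficiency. The next gene out, fidipidine, and the first 2 measured genes on the other side of krimp, CG3687 and CG7786, were not above background in controls either. A loss could not be seen there, and the exact ends of the run are not known. The nearest measured genes above background on all 3 jumu deficiency arrays were csul on the side of CngA and CG15706 on the other. Their means there were 8.97 and 9.41, against 9.36 and 9.10 in controls. Whether the DNA of these genes is intact in the jumu deficiency stock was not tested, and this touches the krimp value of −2.79. The piRNA gene csul, which fell by 0.39, is the fourth measured gene on the side of CngA.

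No such run was seen beside the other 3 genes. Of the 10 neighbours of AGO3, none was higher and 5 were lower in the jumu deficiency, the lowest at −0.64, and 2 were higher and 3 lower in CHES-1-like mutants. Among the lower ones, CG40298 and Snap25 in the jumu deficiency were not above background in either group. The same held for CG34031 and Snap25 in CHES-1-like mutants. For tej 3 were higher and 1 was lower in the jumu deficiency, against 2 higher and 2 lower in CHES-1-like mutants. The highest neighbour of tej was Arc1, a gene related to retrotransposon Gag proteins, at 2.24 ± 0.04 in the jumu deficiency (SE). For aub they were 3 higher and 3 lower in the deficiency and 4 higher and 3 lower in CHES-1-like mutants, with piwi 3 genes away.

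In the annotation aub overlaps TTLL4A, a gene of the tubulin ligase-like family, and the other 3 genes overlap no annotated gene. The TTLL4A probe set read 8.91, 8.88 and 8.86 in controls, 8.59, 8.56 and 8.49 in CHES-1-like mutants and 9.58, 9.61 and 9.68 in the jumu deficiency. Its differences from control, −0.34 ± 0.05 and 0.74 ± 0.05 (SE), had the opposite sign to those of aub in both mutants. Whether the 2 probe sets share target sequence was not tested.

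**Figure D4:**
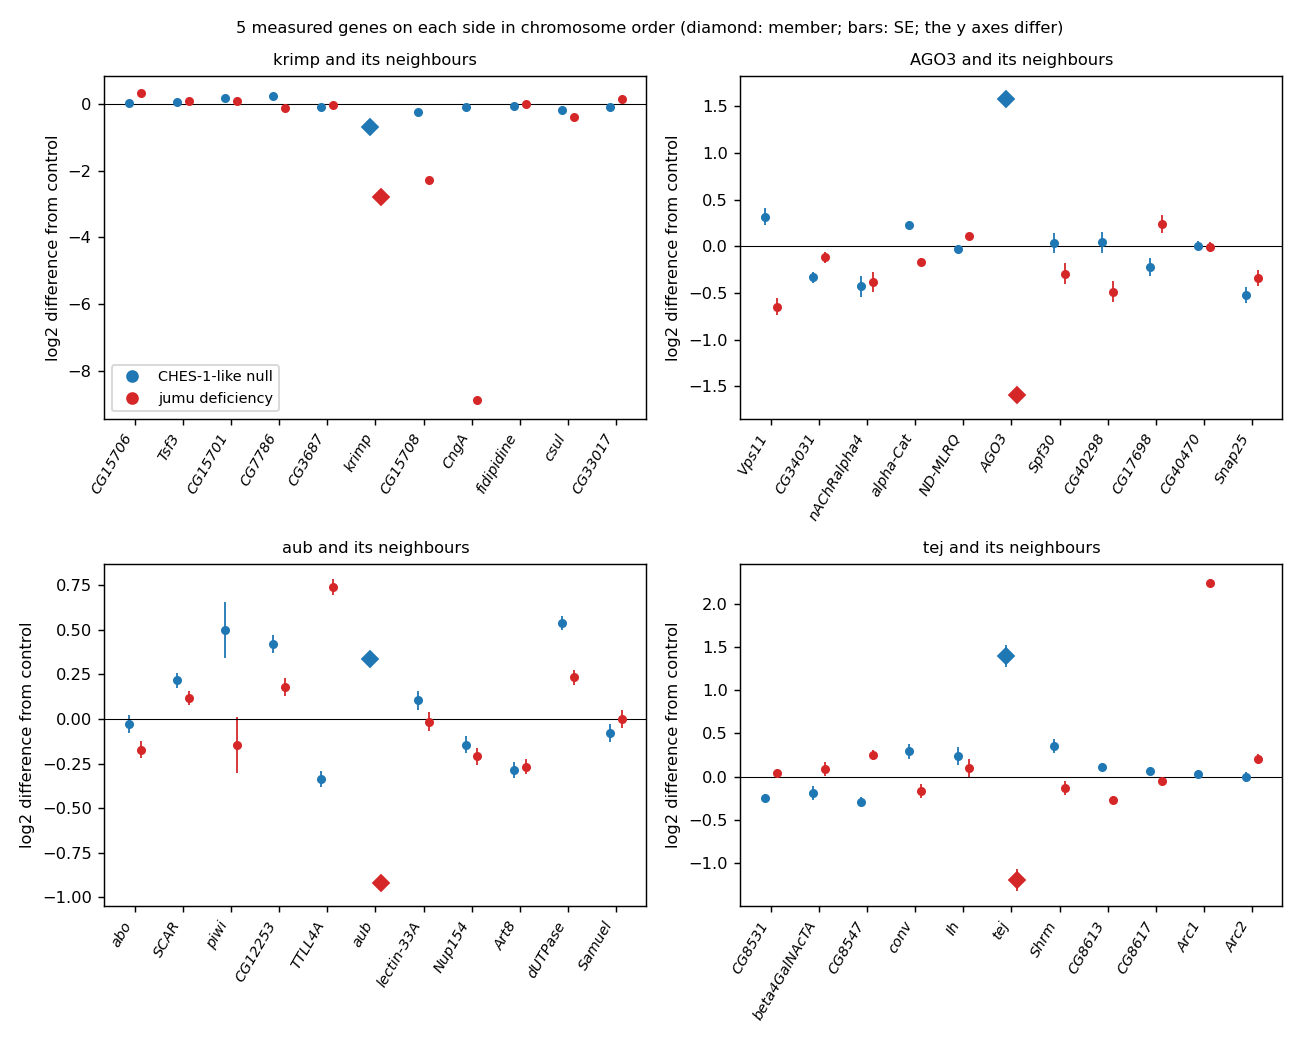
Log2 difference from control (y axis, scales differ between panels, bars are the SE of the fit) for each of the 4 genes (diamonds) and the 5 nearest measured genes on each side in chromosome order (x axis, not to scale), with the CHES-1-like mutant in blue and the jumu deficiency in red. In the krimp panel krimp, CG15708 and CngA lie at −2.79, −2.28 and −8.86 in the jumu deficiency, while TTLL4A beside aub is higher there at 0.74.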

How the data were processed

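The authors deposited log2 signals per probe set of Affymetrix Drosophila arrays, 1 value per array. Per the submitters' processing notes, the R package affy was used. Not given in the sources used here are its version, the background correction, how probes were summarised and whether a filter was set. Deposited values of the probe sets tested ran from 2.99 to 14.82 with array medians of 5.42 to 5.51, so no further normalization was applied. Signals flatten near background, so differences of dim genes are understated. With 3 arrays a group, their number sets the precision.

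The arrays held 18952 probe sets, and 183 of them, controls of the array itself, were dropped. In the platform annotation 13647 of the rest had 1 gene, 402 several and 4720 were not listed, and only the first were named. Symbols were updated to the RefSeq annotation of Release 6 plus ISO1 MT for 13544, and 103 kept the older symbol. A gene is represented by its brightest probe set.

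All 9 arrays entered 1 linear model of group means (lmFit, then eBayes, from limma 3.58.1 under R 4.3.3), which left 6 residual degrees of freedom. P-values were adjusted by Benjamini-Hochberg across every probe set tested, and 0.05 was the threshold. The script was tested on simulated data. The 4 genes and all gene lists were chosen with earlier results of these data known. Named genes are the 4, the targeted genes, all PIWI and nuage genes, Hen1, vas and nanos, up to 4 genes of smallest p from each other small RNA list and the germ cell list, up to 2 from each further list, and the 3 closest in array profile to each of the 4. Closeness is a root mean square difference, with no correlation, since the arrays fall into 3 clusters. Neighbours were added later. Alternatives were quantile normalization, centring, a filter on the dimmest 40% of probe sets, the replicate block, fits of only the groups compared, a variance trend, array weights, other thresholds, the mean of a gene's probe sets, and leaving out each array.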

Additional observations from a re-analysis of the deposited data

How the results depend on the processing

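The values of krimp, AGO3, aub and tej kept their sign under every alternative run. Of their alternative values 201 moved by less than 1 SD and 3 by more. The latter were AGO3 in the CHES-1-like mutant (1.63) and aub in the jumu deficiency (−0.84) with quantile normalization, and aub there with centring (−0.98). Requiring a 1.5-fold change, which by construction calls fewer, left 905 probe sets, 8 piRNA pathway genes, 2 germ cell markers and 0 small interfering RNA and microRNA genes in the CHES-1-like mutant (from 5442, 20, 6 and 3), 1291, 7, 2 and 0 in the jumu deficiency (from 6035, 25, 6 and 5), and 1592, 13 and 0 for all probe sets, pathway genes and the last list between the mutants (from 6464, 30 and 5). The last list had 5 calls in the CHES-1-like mutant without the dimmer 40% of probe sets and 6 with the variance trend, and the cause was not tested. Without 1 array each, pathway calls ranged from 16 to 21, from 23 to 26 and from 26 to 29 in the 3 comparisons. The ranges were 4493 to 5484, 4952 to 6477 and 5672 to 6367 for all probe sets, 5 to 6, 4 to 6 and 5 to 7 for germ cell markers, and 3 to 4, 5 to 5 and 4 to 5 for the last list. Deviations of same-numbered arrays from their group means correlated between −0.136 and 0.15, and the main fit did not pair arrays by number. Differently numbered arrays were not compared in this way, and whether same-numbered arrays shared a collection or sort was not tested. With the replicate block the pathway calls were 18, 25 and 30, and those over all probe sets 5005, 5582 and 6085. For other named genes the side of the threshold, called or not, was the same in 5659 cases, 219 calls were lost and 107 gained. No called direction reversed.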
